A study of Mus musculus with 6 samples.

Results

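Marker genes of brain pericytes were examined in brain endothelial preparations from mutant mice with 2 floxed alleles of Rbpj and control mice with 1. The 9 members, Rgs5, Kcnj8, Abcc9, Higd1b, Ndufa4l2, Cspg4, Anpep, Vtn and Atp13a5, were taken by gene symbol from the 55450 genes of the count table, and all 9 passed the filter that left 19549 genes for testing. The libraries came from brains of mice at postnatal day 7, 3 from the control group, Cdh5(PAC)-CreERT2 with Rbpjflox/WT, and 3 from the mutant group, Cdh5(PAC)-CreERT2 with Rbpjflox/flox. Both groups carried the tamoxifen-inducible Cre, which the Cdh5 promoter drives in endothelium, and in both tamoxifen was given at 100 µg on postnatal day 1 and again on day 2. Control mice thus also carried Cre and 1 floxed allele of Rbpj, whose product binds DNA and passes on Notch signals. Strains were a mix of FVB/N and C57BL/6, both sexes were used, and cells were enriched for CD31 on magnetic beads. The RNA of each group came from a pool of mice, and whether the libraries of a group are separate pools is not given, so all p-values measure the spread between libraries, which may be technical.

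Pericytes are the mural cells of capillaries. They sit inside the basement membrane that they share with the endothelium, are recruited by the endothelial growth factor PDGF-B through their receptor Pdgfrb, and help to form and keep the blood-brain barrier. Cre under the Cdh5 promoter is meant to act in endothelial cells, so in pericytes Rbpj is not the intended target. Pericyte transcripts are therefore read here in a preparation enriched for another cell type, to which pericytes can stay attached. Libraries of such a preparation cannot tell fewer pericytes from less RNA per pericyte.

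Totals ran from 75744913 to 82092461 counts per library, where about 4 counts stand for 1 read pair. Low counts piled up at 4, with 1118 to 1190 genes per library, against 316 to 365 genes at a count of 3. The lowest value of any member, 3478 counts for Higd1b, thus came from about 870 read pairs, a counting error of about 3.39%. Rbpj itself was between 53.8 and 54.3 CPM (counts scaled to library size by TMM) in control libraries. Mutant libraries held between 45.2 and 47.9 CPM, and the log2 fold change was -0.21 (adjusted p = 0.0129 by the edgeR quasi-likelihood test). The call ended when 1 of 3 libraries was left out, with an adjusted p = 0.0571 for control library 1, 0.0543 for control library 2 and 0.051 for mutant library 2. Counts per gene also cover exons that Cre does not remove, so this checks the labels only in part. Endothelial markers, 12 in number, summed to between 12729 and 13066 CPM in control and between 13122 and 14155 CPM in mutant libraries. The first principal component held 43.6% of the variance and separated the groups, from -17.6 to -16.5 in control and from 16.9 to 17.5 in mutant samples.

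The pericyte markers did not move together. Kcnj8, Abcc9, Higd1b, Ndufa4l2 and Cspg4 were higher in the mutant libraries, Vtn was lower, and Rgs5, Anpep and Atp13a5 did not pass the test. That is 5 of 9 called higher and 1 lower at an adjusted p under 0.05 (edgeR quasi-likelihood test, Benjamini-Hochberg over all genes tested). Of all tested genes 14.4% were called, 7.56% higher and 6.83% lower. Abundant genes were called more often: among the 4215 genes with at least the mean level of the lowest member, 51.0 CPM, 30.3% were called. The median log2 fold change of the members was 0.19, against -0.01 over all tested genes, and the members ranged from -0.18 to 0.52. The groups did not overlap in CPM for 7 of the 9, against 34.1% of all tested genes and 51.8% of those 4215. All 9 changes were below 1.5-fold in size. A test against a minimum change of 1.5-fold (glmTreat) could therefore call none of them. It called 0 members, and 0 at an unadjusted p under 0.05. Without such a minimum, DESeq2 and limma-voom each called 5 higher and 1 lower.

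**Figure D1:**
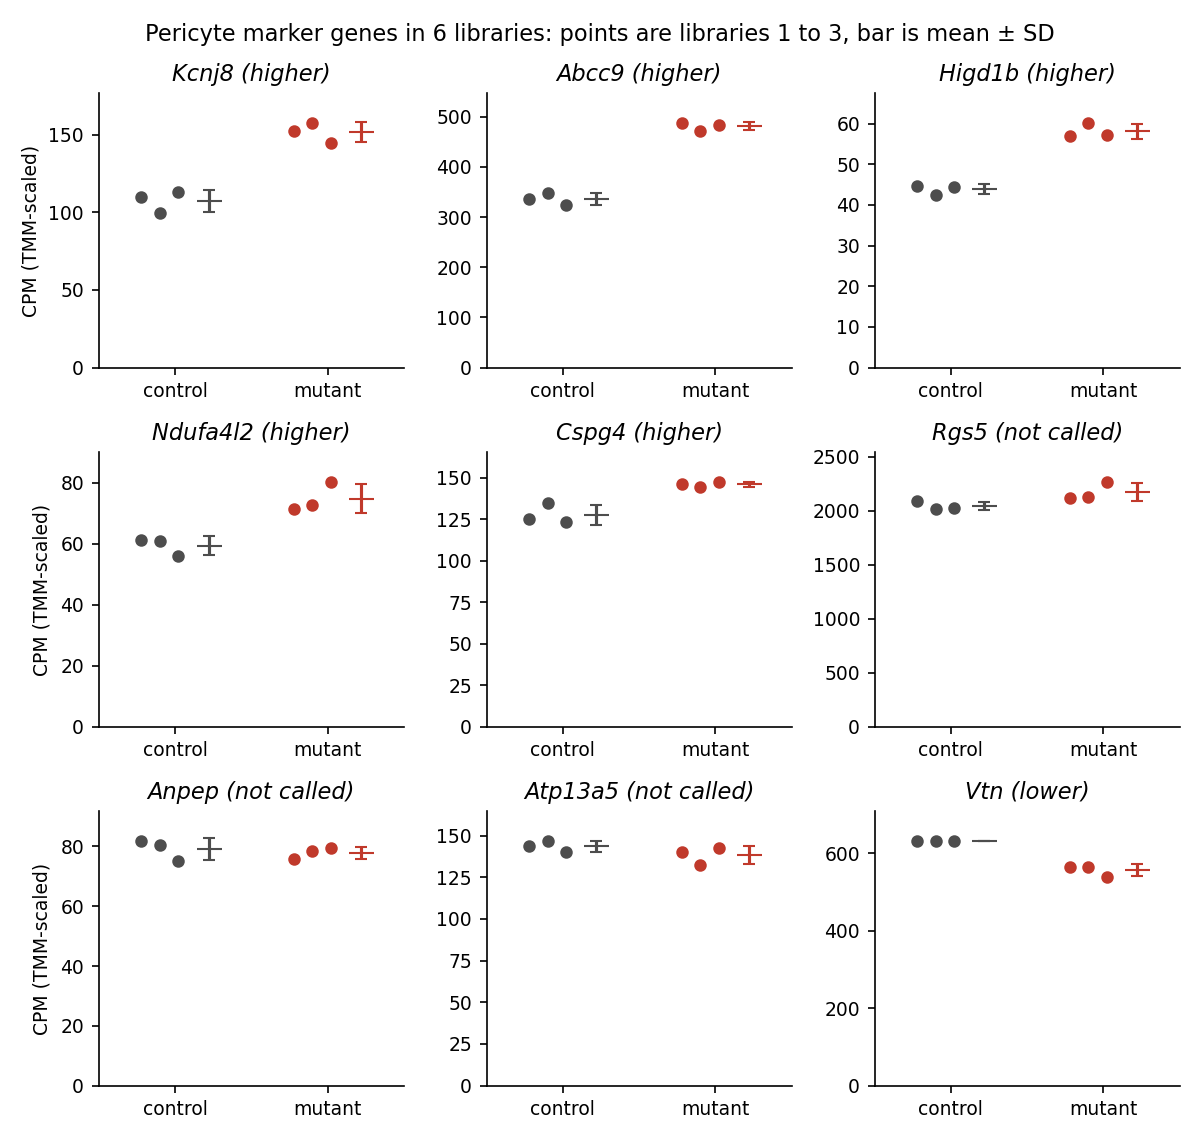
Expression of the 9 pericyte markers in CPM (vertical axes, from 0) in 3 control and 3 mutant libraries; points are libraries, the bar beside them the mean ± SD. Abcc9 lies between 324 and 348 CPM in control and between 472 and 488 CPM in mutant libraries, while the groups overlap for Anpep and Atp13a5.

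The largest rises were in the subunits of a potassium channel. Kcnj8 encodes the pore-forming subunit Kir6.1 and Abcc9 the sulfonylurea receptor SUR2, which together form the ATP-sensitive potassium channel of vascular mural cells. Kcnj8 (ENSMUSG00000030247) lies on chromosome 6 from 142564837 to 142571614 on the minus strand (GRCm38). Its neighbour Abcc9 (ENSMUSG00000030249) lies on the same strand from 142587862 to 142702315, 16247 bases away. Kcnj8 stood at 110, 99.6 and 113 CPM in control libraries 1 to 3 and at 152, 157 and 145 CPM in mutant libraries 1 to 3. Each mutant library was above each control library. Kcnj8 rose by 0.49 ± 0.057 (SE) on the log2 scale, which is 1.41-fold (adjusted p = 0.00111, edgeR). Abcc9 stood at 337, 348 and 324 CPM in control and at 488, 472 and 483 CPM in mutant libraries, again with no overlap. It rose 1.43-fold, by 0.52 ± 0.036 (SE) on the log2 scale (adjusted p = 0.000111, edgeR). Both genes were called under all 15 alternatives except glmTreat.

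The ratio of the subunit counts did not separate the groups. For each library it was taken from the raw counts, as Kcnj8 in percent of Abcc9. It was 32.7%, 28.6% and 34.9% in control and 31.2%, 33.3% and 30.0% in mutant libraries. These percentages are not corrected for length, as the exons span 2548 bases for Kcnj8 and 8373 for Abcc9. Per kb of exon the means of Kcnj8 and Abcc9 were 42.2 and 40.2 CPM in control and 59.5 and 57.5 CPM in mutant libraries. The mean log2 ratio was -1.65 ± 0.147 (SD, n = 3) in control and -1.67 ± 0.077 (SD, n = 3) in mutant libraries. The difference was -0.02 (exact permutation test, two-sided, p = 1; 3 libraries against 3 cannot give less than 0.1), and its sign turned to 0.043 without control library 3 and to 0.015 without mutant library 3. A part of the Abcc9 exons, 1.89%, overlaps the antisense gene 5330439B14Rik, which held at most 4 counts in any library. The paralogs that form the pancreatic and neuronal form of the channel were low. Kcnj11 was between 0.619 and 1.04 CPM and Abcc8 between 0.715 and 1.15 CPM over the 6 libraries, and neither was called (adjusted p = 0.862 and 0.457, edgeR).

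Since Kcnj8 and Abcc9 are neighbours that rose together, and Vtn fell, their promoters are shown for the letters they hold. The sequences run 5′ to 3′ on the gene's strand, from 250 bases before the RefSeq start site to 50 bases from it on (GRCm38.p6), and capitals mark the letters TGGGAA, the core of the site bound by Rbpj, or its reverse complement TTCCCA.
Kcnj8, chr6:142571565-142571864, minus strand: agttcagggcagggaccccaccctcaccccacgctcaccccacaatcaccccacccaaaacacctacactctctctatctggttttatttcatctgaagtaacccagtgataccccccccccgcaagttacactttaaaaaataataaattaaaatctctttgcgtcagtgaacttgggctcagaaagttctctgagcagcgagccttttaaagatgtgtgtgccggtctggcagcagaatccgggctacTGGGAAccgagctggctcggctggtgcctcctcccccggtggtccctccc
Abcc9, chr6:142702225-142702524, minus strand: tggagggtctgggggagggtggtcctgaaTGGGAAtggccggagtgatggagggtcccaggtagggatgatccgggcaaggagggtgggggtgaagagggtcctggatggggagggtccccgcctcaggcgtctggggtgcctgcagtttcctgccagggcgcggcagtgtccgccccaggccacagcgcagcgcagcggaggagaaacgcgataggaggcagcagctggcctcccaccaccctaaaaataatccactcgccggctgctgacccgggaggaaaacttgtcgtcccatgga
Vtn, chr11:78498870-78499169, plus strand: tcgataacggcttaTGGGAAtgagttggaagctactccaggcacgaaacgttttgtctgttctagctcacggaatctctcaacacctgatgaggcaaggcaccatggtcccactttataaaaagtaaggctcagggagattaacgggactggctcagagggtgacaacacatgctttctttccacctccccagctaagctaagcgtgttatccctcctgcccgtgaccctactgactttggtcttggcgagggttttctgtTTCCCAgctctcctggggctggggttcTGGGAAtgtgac
The Kcnj8 window held 1 match, which began at the start site, the Abcc9 window 1 match, which began 221 bases before it, and the Vtn window 3 matches. Of 32851 RefSeq promoter windows of this length, 25.6% held these letters on either strand. RefSeq windows were matched for 7 of the 9 members, but not for Higd1b and Ndufa4l2. The windows of Rgs5, Cspg4, Anpep and Atp13a5, not printed here, held 0 matches, so the windows printed are those with a match. The letters ACGTG on either strand, 1 form of the core of the hypoxia response element, were in 19.6% of all windows and in 0 of the 7 matched. Higd1b and Ndufa4l2 were thus not examined for them. The other form, GCGTG, was not counted, and the printed Kcnj8 and Vtn windows each hold it on 1 of the strands. Such matches describe letters in a window and show no binding, and whether they bear on the changes was not tested.

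Higd1b and Ndufa4l2, small proteins of the mitochondrion, followed. Higd1b (ENSMUSG00000020928; chromosome 11, 102835849 to 102838040, plus strand) is a family member of the hypoxia-induced HIG1 domain proteins. It stood at 44.7, 42.5 and 44.4 CPM in control and at 56.8, 60.2 and 57.3 CPM in mutant libraries. The groups did not overlap, and the gene rose by 0.41 ± 0.045 (SE) on the log2 scale, 1.32-fold (adjusted p = 0.00096, edgeR). Ndufa4l2 (ENSMUSG00000040280; chromosome 10, 127514967 to 127517154, plus strand) is a relative of a respiratory chain subunit and a known target of hypoxia-inducible factors in other cells. Its values were 61.3, 61.0 and 55.9 CPM in control and 71.3, 72.7 and 80.3 CPM in mutant libraries, of which mutant library 3 was highest. The rise was 0.33 ± 0.061 (SE) on the log2 scale, 1.26-fold (adjusted p = 0.00969, edgeR). A part of its exon sequence, 2.92%, overlaps Shmt2 on the opposite strand, which was not called (72.3 ± 2.44 CPM in control, 78.7 ± 2.67 CPM in mutant, SD, n = 3; adjusted p = 0.121, edgeR). The more widely expressed relatives did not pass the test either: Higd1a had a log2 fold change of 0.05 ± 0.188 (SE) and Ndufa4 one of -0.15 ± 0.228 (SE), both with wide spread between libraries of a group. The sign for Higd1a turned in 3 fits with 1 library left out (-0.033 for control library 1, -0.051 for control library 2 and -0.023 for mutant library 3).

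Cspg4, which encodes the surface proteoglycan NG2, had the smallest called rise. Cspg4 (ENSMUSG00000032911; chromosome 9, 56865033 to 56899870, plus strand) stood at 125, 135 and 123 CPM in control and at 146, 145 and 148 CPM in mutant libraries. The groups did not overlap, though control library 2 came near the mutant group. Its log2 fold change was 0.19 ± 0.042 (SE), 1.14-fold (adjusted p = 0.0213, edgeR). The call was lost when control library 1 or 3 was left out (adjusted p = 0.0796 and 0.065), and likewise for mutant libraries 1 and 2 (0.0642 and 0.0553; over all alternatives 0.00584 to 1). NG2 also marks oligodendrocyte precursors. The summed level of 8 markers of those cells was between 12.3 and 12.8 CPM in control and between 8.84 and 10.8 CPM in mutant libraries. Of the 7 tested, 1 was lower (Olig2) and 0 were higher, with a median of -0.22. The Olig2 call rests on 37 to 132 counts per library, or about 9.25 to 33 read pairs, and was lost without control library 1 or 3 (adjusted p = 0.0574 and 0.0678, edgeR) and without mutant library 2 or 3 (0.0603 and 0.0519). Pdgfra, which also marks these precursors, stands in the fibroblast list and was between 34.1 and 39.7 CPM in control and between 26.5 and 34.9 CPM in mutant libraries (adjusted p = 0.289, edgeR). The part of these cells in the Cspg4 values was not tested.

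Vtn was the only member called lower. It encodes vitronectin, an adhesive protein of serum and matrix that brain pericytes secrete. Vtn (ENSMUSG00000017344; chromosome 11, 78499091 to 78502324, plus strand) stood at 632, 632 and 631 CPM in control and at 565, 565 and 539 CPM in mutant libraries. Control libraries were within 1 CPM of each other, and all mutant libraries were below them. The gene fell by 0.18 on the log2 scale (SE 0.031), to 0.880 of the control level (adjusted p = 0.00705, edgeR), and was called with any of the 6 libraries left out (adjusted p up to 0.0406).

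Rgs5, the most abundant member, did not pass the test. It encodes a regulator of G-protein signalling and is used as a defining marker of brain pericytes. Rgs5 (ENSMUSG00000026678; chromosome 1, 169655501 to 169695813, plus strand) stood at 2087, 2016 and 2026 CPM in control and at 2121, 2128 and 2267 CPM in mutant libraries. The groups did not overlap, but the difference was small. The log2 fold change was 0.09 ± 0.036 (SE; adjusted p = 0.163, edgeR), and it was not called under any of the 15 alternatives (adjusted p 0.0902 to 1). Its paralog Rgs4, on the other hand, was called higher. Rgs4 stood at 112, 110 and 109 CPM in control and at 129, 132 and 135 CPM in mutant libraries. It rose by 0.26 ± 0.034 on the log2 scale (SE; adjusted p = 0.00217, edgeR).

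Anpep and Atp13a5 overlapped between the groups. Anpep encodes aminopeptidase N (CD13), which is also found on myeloid cells and fibroblasts, and Atp13a5 encodes a P5-type transport ATPase used as a marker of brain pericytes. Anpep (ENSMUSG00000039062; chromosome 7, 79821803 to 79861059, minus strand) stood at 81.9, 80.6 and 75.1 CPM in control and at 75.6, 78.4 and 79.6 CPM in mutant libraries. Its log2 fold change was -0.02 ± 0.046 (SE; adjusted p = 0.805, edgeR), with the opposite sign without control library 1 (0.0062). Atp13a5 (ENSMUSG00000048939; chromosome 16, 29231851 to 29378732, minus strand) stood at 144, 147 and 140 CPM in control and at 140, 132 and 143 CPM in mutant libraries. Its log2 fold change was -0.05 ± 0.041 (SE; adjusted p = 0.499, edgeR). Genes annotated within Anpep and Atp13a5 on the same strand, Gm44974 and Gm15752, share no exon with them and held at most 4 counts in any library. The paralog and neighbour Atp13a4 was not called (log2 fold change -0.07 ± 0.239 SE), with the opposite sign without control library 1 or mutant library 3 (0.078 and 0.076).

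**Figure D2:**
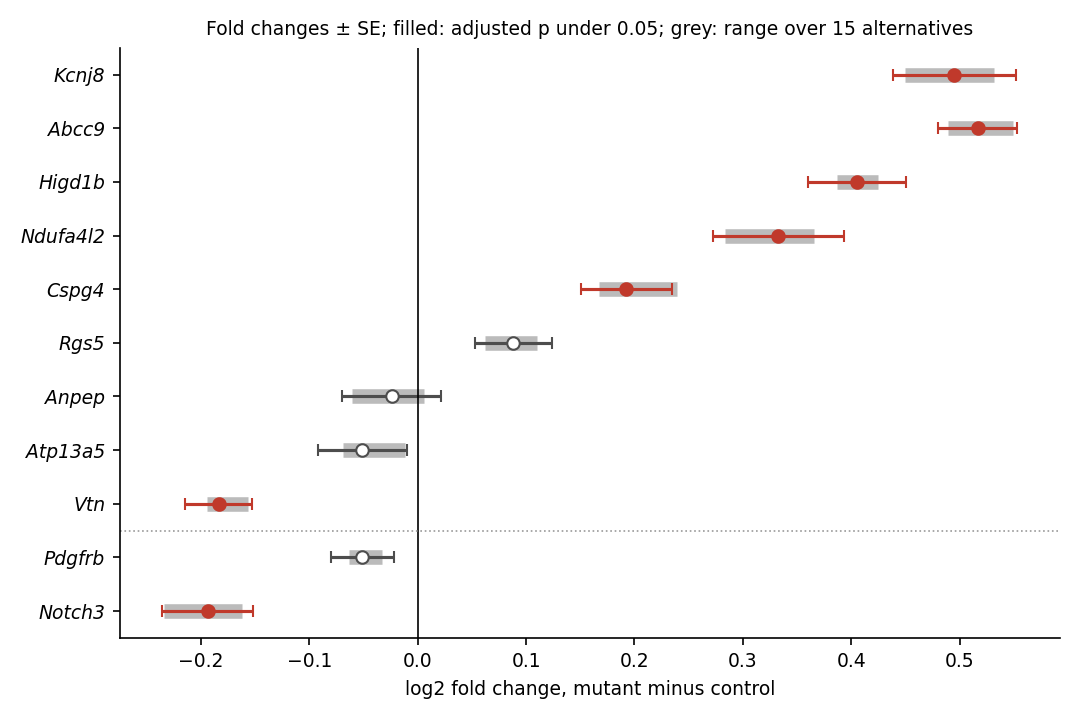
Log2 fold change of each pericyte marker, and of the mural genes Pdgfrb and Notch3 below the dotted line, as mutant minus control (horizontal axis); points are estimates ± SE, filled where the adjusted p was under 0.05, and grey bars span the 15 alternatives. Kcnj8 (0.49) and Abcc9 (0.52) lie farthest to the right, and the grey bar of Anpep crosses 0.

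Levels were compared between genes per length, as CPM per kb of exon. In control libraries Rgs5 was highest, at 449 ± 8.40 CPM per kb (SD, n = 3), followed by Vtn at 311 ± 0.225. Then came Ndufa4l2 at 54.2 ± 2.78 and Higd1b at 51.8 ± 1.40, whose libraries overlapped, and Kcnj8 at 42.2 ± 2.77 and Abcc9 at 40.2 ± 1.47, whose libraries overlapped too. Atp13a5 at 30.8 ± 0.728, Anpep at 19.2 ± 0.863 and Cspg4 at 10.7 ± 0.507 CPM per kb were lowest, each apart from its neighbours. In mutant libraries the order was the same except that Higd1b, at 68.6 ± 2.13, and Ndufa4l2, at 68.3 ± 4.41 CPM per kb, changed places while still overlapping. Over all 6 libraries only 0.399% of tested genes had a higher level per length than Rgs5 (rank 79), against 22.9% for Cspg4 (rank 4470). Because Rgs5 made up between 55.6% and 57.6% of the summed CPM of the members, the sum mostly follows that gene. It was between 3533 and 3622 CPM in control and between 3812 and 3941 CPM in mutant libraries. Without Rgs5 it was between 1507 and 1546 CPM and between 1675 and 1695 CPM.

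**Figure D3:**
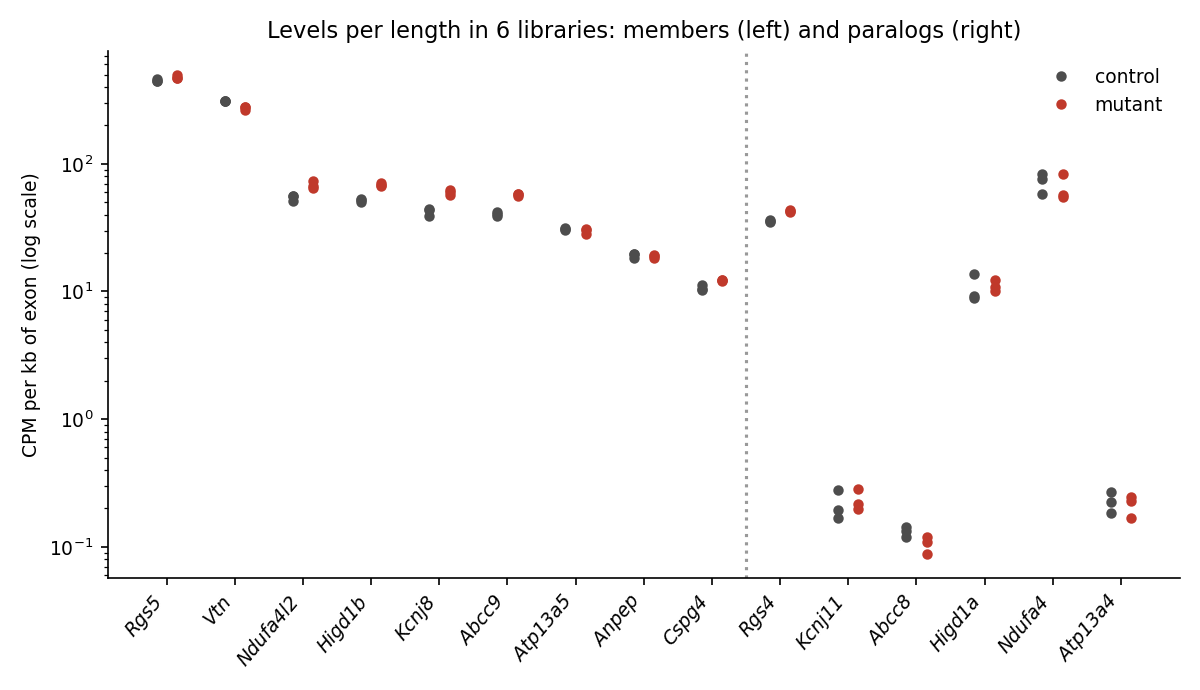
Levels in CPM per kb of exon (vertical axis, log scale) of the 9 pericyte markers, ordered by their control mean, and of 6 paralogs to the right of the dotted line; each point is 1 library. Rgs5 is near 449 CPM per kb in control libraries, and Kcnj11, Abcc8 and Atp13a4 lie below 1 CPM per kb.

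Profiles over the 6 libraries showed which members were most alike. The measure was the root mean square distance between log2 CPM profiles, each centred on its own mean, among 11738 genes with a mean of at least 5 CPM. The closest pairs of members were Anpep and Atp13a5 at 0.050, Kcnj8 and Higd1b at 0.063 and Rgs5 and Anpep at 0.067. Rgs5 and Cspg4 followed at 0.076, Rgs5 and Atp13a5 at 0.079 and Abcc9 and Higd1b at 0.085. Near pairs thus joined called with uncalled members as well. Abcc9 and Vtn were 0.353 apart, the largest distance between members. Genes outside the members came closer than any member did. The genes of most like profile were Tspan18, Syncrip and Eif4g3 for Rgs5 (0.0070 to 0.012) and Bhlhe40, Morc4 and Ppa1 for Abcc9 (0.017 to 0.024). For Kcnj8 the closest were the enolase gene Eno1 and Cdkn2aipnl (0.034 and 0.046), where Eno1 may share reads with a near-identical copy. For Higd1b they were the kinase gene Sgk1, Grpel1 and B3gnt2 (0.015 to 0.025). For Ndufa4l2 they were the myosin gene Myh9, Atmin and the apelin receptor gene Aplnr (0.023 to 0.030). For Vtn they were Gprasp1, Pik3r3 and Bloc1s1 (0.015 to 0.018). With so many genes and 6 libraries, short distances are common, and they are given as a description.

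Other pericyte and mural genes were split as well. Of 24 further genes tested, 8 rose and 5 fell, and the median was -0.03. Without control library 2 or mutant library 2, and with the replicate number as a block, 3 fell. Pdgfrb, the receptor for PDGF-B and the common mural marker, stood at 452, 444 and 437 CPM in control and at 433, 427 and 427 CPM in mutant libraries. The mutant libraries were all below the control libraries, but the log2 fold change of -0.05 ± 0.029 (SE) did not pass the test (adjusted p = 0.326, edgeR). The mural Notch receptor gene Notch3 was between 184 and 202 CPM in control and between 170 and 171 CPM in mutant libraries (log2 fold change -0.19 ± 0.042 SE, adjusted p = 0.0204, edgeR). Leaving out control library 1 or 2 ended that call (adjusted p = 0.0919 and 0.0875), as did leaving out the mutant libraries of these numbers (0.067 and 0.0744). The largest rises were in the adhesion molecule gene Mcam (CD146), which endothelial cells express too, from 439 to 902 CPM (1.04 ± 0.031 SE on the log2 scale, adjusted p = 3.47e-06, edgeR), and in Cox4i2, an oxygen-sensitive isoform of a cytochrome c oxidase subunit, from 17.6 to 29.6 CPM (0.75 ± 0.071 SE, adjusted p = 0.00043, edgeR). The largest fall was in the mural transcription factor gene Tbx18, from 22.7 to 14.3 CPM (-0.66 ± 0.089 SE, adjusted p = 0.00251, edgeR). The laminin gene Lamc3 fell by 0.42 on the log2 scale (SE 0.052, adjusted p = 0.00162, edgeR).

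Smooth muscle, the other mural cell type, gave lower values. Of 12 smooth muscle genes 10 were lower and 1, Smtn, was higher, with a median of -0.997. The contractile genes Cnn1, Actg2 and Acta2 had the largest falls. Acta2, smooth muscle actin, was between 172 and 184 CPM in control and between 61.6 and 79.2 CPM in mutant libraries (log2 fold change -1.32 ± 0.093 SE, adjusted p = 0.000242, edgeR). The summed level of the 12 genes was between 904 and 946 CPM in control and between 683 and 695 CPM in mutant libraries. A large part of this sum was Smtn, which averaged 285 CPM over the controls and 346 CPM over the mutants. The sum thus understates the fall of the other genes. Kcnj8, Abcc9, Rgs5 and Cspg4 are also expressed in smooth muscle, and the part of the smooth muscle difference in their values was not tested.

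Markers of other cells that could be in the preparation were mostly lower or not called. Of 12 fibroblast genes 5 fell and 0 rose. Only 3 fell when control library 1 or 2 was left out, or the second mutant library, whereas DESeq2 called 8 lower. Col1a2, a collagen gene among the 5, lost its call when any control library, or mutant library 2, was left out (adjusted p 0.0782 to 0.111, edgeR), with library-size scaling (0.0566) and without the low-count filter (0.0794). In contrast, Ogn (log2 fold change -0.90 ± 0.069 SE, adjusted p = 0.000165, edgeR) kept its call under all 15 alternatives. With glmTreat at 1.5-fold, 2 fibroblast genes were called lower. The median of the fibroblast genes was -0.38, and they summed to between 5011 and 5782 CPM in control and between 4031 and 4449 CPM in mutant libraries. Most of this fibroblast sum came from Fn1, so the sum mostly follows that gene. Fn1 averaged 4204 CPM over the controls against 3365 CPM over the mutants, and it was not called (adjusted p = 0.067, edgeR). Of 10 microglia genes 8 fell and 0 rose, against 6 to 7 that fell with 1 library left out. The fractalkine receptor gene Cx3cr1 was no longer called when any library other than mutant library 3 was left out (adjusted p 0.0754 to 0.153, edgeR). Tmem119 and Csf1r, both with a log2 fold change of -0.39, were called under all 15 alternatives except glmTreat (main test: adjusted p = 0.00555 and 0.000784, edgeR). The median of the microglia genes was -0.35, and they summed to between 1641 and 1690 CPM in control and between 1289 and 1351 CPM in mutant libraries. Both cell types can express Anpep, and their part in its values was not tested. Of 7 astrocyte genes 1 (Aqp4) was lower, with a median of -0.32, against 3 with DESeq2. The Aqp4 call was lost without control library 1 or 2 (adjusted p = 0.122 and 0.0983, edgeR) and without mutant library 2 or 3 (0.113 and 0.1). Of 6 neuronal genes 1 (Stmn2) was lower, with a median of 0.25, and its call was lost without control library 1 or 2 (adjusted p = 0.0554 and 0.0552, edgeR). In both lists 0 genes were higher, apart from 1 neuronal gene without mutant library 3. Of 12 endothelial genes 4 were higher, among them Emcn, Egfl7 and Pecam1, and 2 lower, Tek and Cdh5, with a median of 0.08. The Cdh5 call (adjusted p = 0.038, edgeR) was lost when any library other than mutant library 3 was left out (0.0973 to 0.161) and with the replicate number as a block (0.078).

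Genes through which endothelium recruits and holds pericytes moved both ways. Of 24 tested, 7 rose and 6 fell, and the median was 0.02. Pdgfb, the ligand of Pdgfrb, rose from 320 to 419 CPM (0.39 ± 0.041 SE on the log2 scale, adjusted p = 0.000707, edgeR). It is named here for its role, after its values were seen. Angpt2, which can act against the Tie2 ligand Angpt1, rose most, by 1.67 ± 0.043 (SE; adjusted p = 1.65e-06, edgeR), while Angpt1, made by mural cells, fell by 0.66 (SE 0.103, adjusted p = 0.00459, edgeR). Tgfb1 rose by 0.44 ± 0.054 (SE; adjusted p = 0.00155, edgeR). The chemokine gene Cxcl12 fell by 0.83 (SE 0.059, adjusted p = 0.000115, edgeR) and the adhesion gene Vcam1 by 0.88 (SE 0.052, adjusted p = 5.25e-05, edgeR).

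**Figure D4:**
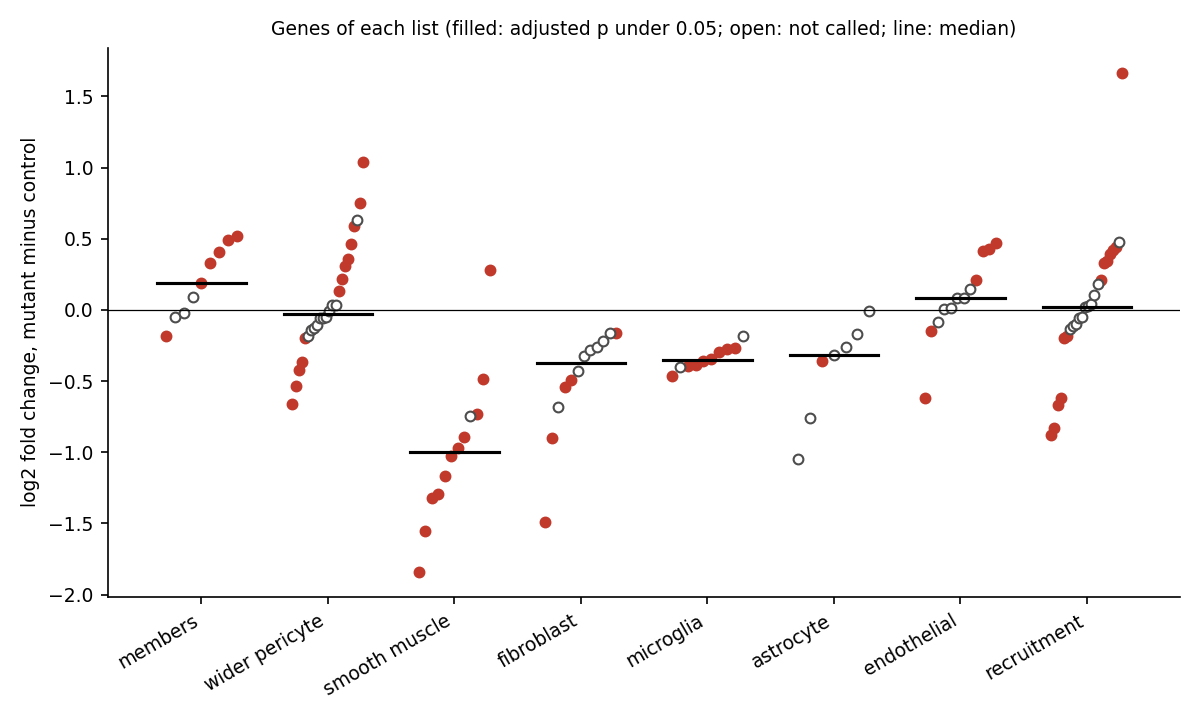
Log2 fold change (vertical axis, mutant minus control) of the tested genes of 8 lists, each point a gene, filled where the adjusted p was under 0.05, with the list's median as a line. The pericyte markers (median 0.19) spread over both sides of 0, while the smooth muscle genes (median -0.997) lie below 0 except Smtn.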

How the data were processed

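Poly(A) RNA-seq was analysed in 6 libraries, 3 control and 3 mutant, grouped by the genotype label. The authors deposited estimated counts per gene as whole numbers without normalization. Per the submitters' processing notes, the tools were HISAT2, StringTie 1.3.4, cutadapt 1.10, FastQC 0.10.1 and edgeR, with the build GRCm39; roles, annotation and strand use are not given in the sources used here. The 55450 identifiers all matched GENCODE M21 (GRCm38), which gave symbols, lengths and coordinates; the build named in the notes differs from it. Because about 4 counts stand for 1 read pair, precision follows read pairs. Median chi-square values between libraries of a group were 1.89 to 2.76 times expectation, so none were merged.

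Mutant and control libraries were compared by the quasi-likelihood test of edgeR 4.0.16 (R 4.3.3, robust) after filterByExpr and TMM scaling, with the group as the only term and Benjamini-Hochberg adjustment over 19549 genes. The SE is the log2 fold change over the square root of F. CPM were computed from the deposited counts, and per kb over the union of exons. Alternatives were RLE or no scaling, other filters, DESeq2 1.42.0, limma-voom 3.58.1, counts divided by 4, a replicate block, glmTreat and leaving out each library. Members and lists were chosen with earlier results of these data known. Named genes were all members, their paralogs and overlapping genes, the 3 genes of most like profile, Pdgfrb, Notch3 and Rbpj, and up to 3 called genes of largest change per list and direction; a gene that met this rule is not reported here.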

Additional observations from a re-analysis of the deposited data

How the results depend on the processing

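Among the settings with all 6 libraries, other scaling (RLE, library size only), other filters, DESeq2, limma-voom and counts divided by 4 each left 5 pericyte markers higher and 1 lower. With glmTreat at 1.5-fold the counts were 0 higher and 0 lower, since the estimate of each marker lay below that size. Over all genes the counts were 202 higher and 89 lower against 1477 and 1335. With 1 library left out, 4 to 5 markers were higher and 1 lower, and Cspg4 was the marker lost. The count of all higher genes was then 1100 to 1270, against 1477 with all 6 libraries. That of all lower genes fell to 807 (control library 1 left out), 861 (control library 2) and 865 (mutant library 2). The ratio of Kcnj8 to Abcc9 then differed by -0.10 to 0.043 on the log2 scale. Signs that turned with 1 library left out belonged to genes not called: Anpep (-0.061 to 0.0062), Kcnj11 (-0.049 to 0.36), Higd1a (-0.051 to 0.28) and Atp13a4 (-0.20 to 0.078); the cause was not tested. With the replicate number as a block, 4 markers were higher (Cspg4: adjusted p = 0.0636, edgeR) and 1 lower, over all genes 1106 and 953, and the log2 ratio of Kcnj8 to Abcc9 differed by -0.021 (exact sign-flip test of pairs, p = 1, where 3 pairs cannot give less than 0.25). Deviations of same-numbered libraries correlated at 0.013 to 0.027 across 11738 genes, and those of other pairs at -0.028 to 0.0094. Each library correlated best with its own number, but all these values were small. With so few libraries they cannot tell whether libraries are paired, and the design names no pairing. Differences of the size seen for Anpep and Atp13a5 were within the spread of the libraries, and the number of libraries limits what can be called.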
